A study of Drosophila melanogaster with 4 samples.

Results

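The X chromosome of Drosophila melanogaster carried 1859 clusters of dimethylated lysine 79 on histone H3 (H3K79me2) in the authors' combined list of called regions. Every region on X that the list gives as enriched was taken, and such a region is termed a cluster. These were 18.7% of the 9950 clusters of the list. The replicate lists held 1260 X clusters of 6376 (replicate 1) and 1751 of 10183 (replicate 2). Chromatin came from nuclei of heads of wild-type Oregon-R flies, labelled as mixed adults and raised in population cages on a cycle of 22 days, and was precipitated with 1 lot of an antibody to H3K79me2 (Abcam ab3594). The series has 4 samples, which are 2 chromatin immunoprecipitation (ChIP) libraries and an input library for each. No treatment or mutant was compared, so the comparisons are between replicates and between chromosome arms. The sexes of the flies are not given, and the heads hold neurons, glia and other cells together, so all values are averages over cell types and over whatever sexes were present.

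H3K79me2 is placed by the Dot1 methyltransferase, which flies encode as the gene grappa, and it is found over the bodies of transcribed genes. The fly X is dosage compensated: in males the MSL complex, guided by the roX RNAs, binds transcribed X genes and its MOF subunit acetylates histone H4 there. In females the X is not bound in this way. Position 1 of the X arm lies at the telomere and the last position near the centromere, where the arm passes into pericentric heterochromatin. The lists are on FlyBase release 5 and genes were at hand only on release 6, so regions are named by position and not by gene, and no sequence is printed.

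H3K79me2 clusters covered a similar part of X in both replicates. Of the 22.4 Mb of the arm, 5.56 Mb (24.8%) lay in clusters of replicate 1 and 6.32 Mb (28.2%) in those of replicate 2, a mean of 26.5% ± 2.39 (SD, n = 2). The combined list covered 7.44 Mb or 33.2%. There were 56.2 clusters per Mb in replicate 1 and 78.1 in replicate 2 (67.1 ± 15.5, SD, n = 2). The replicates thus differed more in the number of clusters than in the length that they marked. Depth is unknown, since no read counts were analysed, and regions outside the lists were only not called.

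Relative to the 4 large autosomal arms, X had a little less of its length marked in both replicates, and its place in cluster number and width depended on the replicate. The ratio of its marked share to that of 2L, 2R, 3L and 3R pooled was 0.89 and 0.91 in replicates 1 and 2 (mean 0.90 ± 0.016, SD, n = 2). Among clusters at or above their list's median score the mean ratio turned to 1.03. The single arms ranged from 25.6% to 29.3% in replicate 1, so X lay below each of them. In replicate 2 they ranged from 25.8% to 34.5%, and X lay above 2L. The number of clusters per Mb had no stable order. X had 1.08 times the autosomal density in replicate 1 and 0.90 times in replicate 2. In replicate 1 it lay among the arms (49.1 to 56.8 per Mb), and in replicate 2 just below all of them (78.6 to 92.5). An exact permutation test over 2 libraries cannot pass a threshold of 0.05, so no p is given for any of these differences.

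**Figure D1:**
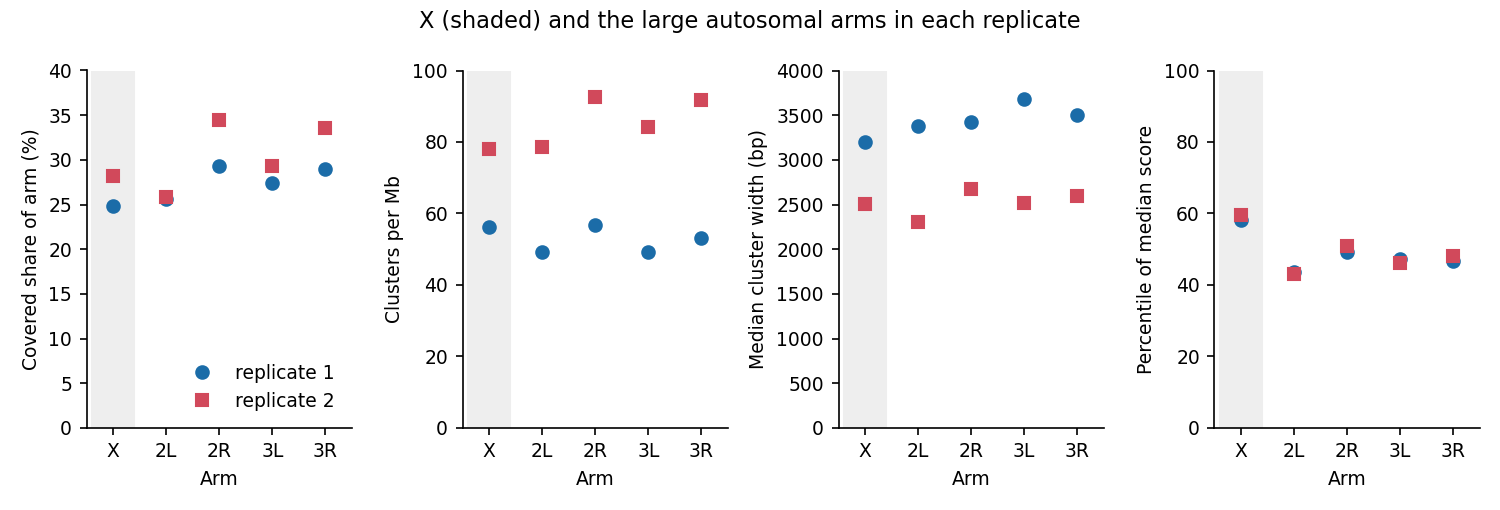
Covered share (%), clusters per Mb, median cluster width (bp) and the percentile of the arm's median score among all large-arm clusters, for X (shaded) and 4 autosomal arms; each point is 1 replicate list. X has the highest score percentile in both replicates (58.0 and 59.5), while its place in the other panels depends on the replicate.

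The 2 replicates differed less in cluster number on X than on any large autosomal arm. Replicate 2 held 1.39 times as many X clusters as replicate 1, against 1.59 times (2L), 1.63 times (2R), 1.71 times (3L) and 1.73 times (3R). The covered length, by contrast, rose 1.14 times on X, inside the autosomal range of 1.01 times (2L) to 1.18 times (2R). This contrast rests on 1 pair of libraries, and its error cannot be estimated.

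X clusters were a few kilobases wide in each list. In replicate 1 their median width was 3201.5 bp, with 25% of clusters under 2078 bp and 25% over 5446.5 bp, and 2507 bp in replicate 2, with quartiles of 1862.5 bp and 4233.5 bp. In the combined list the median was 2782 bp. There were 83 clusters of at least 10 kb in replicate 1, 66 in replicate 2 and 118 in the combined list. They made up 6.59%, 3.77% and 6.35% of the X clusters and held 22.3%, 16.1% and 23.5% of the covered length. Most of the marked length on X therefore lay in clusters under 10 kb.

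Wide clusters were scarcer on X than on the autosomes in replicate 1, but not in replicate 2. The share of clusters of 10 kb or wider in replicate 1 was below that of every large autosomal arm (9.65% to 12.3%), and the widest X cluster was 35.3 kb, while the widest of each autosomal arm was between 72.7 kb and 99.7 kb. In replicate 2 the share on X lay inside the autosomal range (3.04% to 4.29%), and the widest X cluster was 59.4 kb, above the widest of each autosomal arm (22.4 kb to 42.0 kb). The ratio of X to autosomal median width was 0.91 in replicate 1 and 0.99 in replicate 2. How the replicates cut the same domains into clusters moves with these widths. Of the 118 combined X clusters of 10 kb or wider, 73 (61.9%) were met by several clusters of replicate 1 and 59 (50.0%) by several of replicate 2. On the autosomal arms the order was the opposite, with 41.4% cut in replicate 1 and 59.6% in replicate 2. Whether this cutting accounts for the difference in wide clusters was not tested.

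Neighbouring X clusters were separated by short gaps, with a long tail. The median gaps of replicates 1 and 2 were 2710 bp and 2683.5 bp (2697 ± 18.7 bp, SD, n = 2), although replicate 2 held many more clusters. Gaps under 1 kb made up 28.0% of all gaps in replicate 1 and 25.7% in replicate 2, and gaps of 50 kb or longer made up 6.91% and 3.77%. Those long gaps were few, 87 and 66, but held 44.5% and 29.7% of the length of X. The autosomal arms ranged from 35.6% to 44.3% in replicate 1 and from 17.0% to 29.5% in replicate 2, so X lay at the upper end in both, close to 2L.

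**Figure D2:**
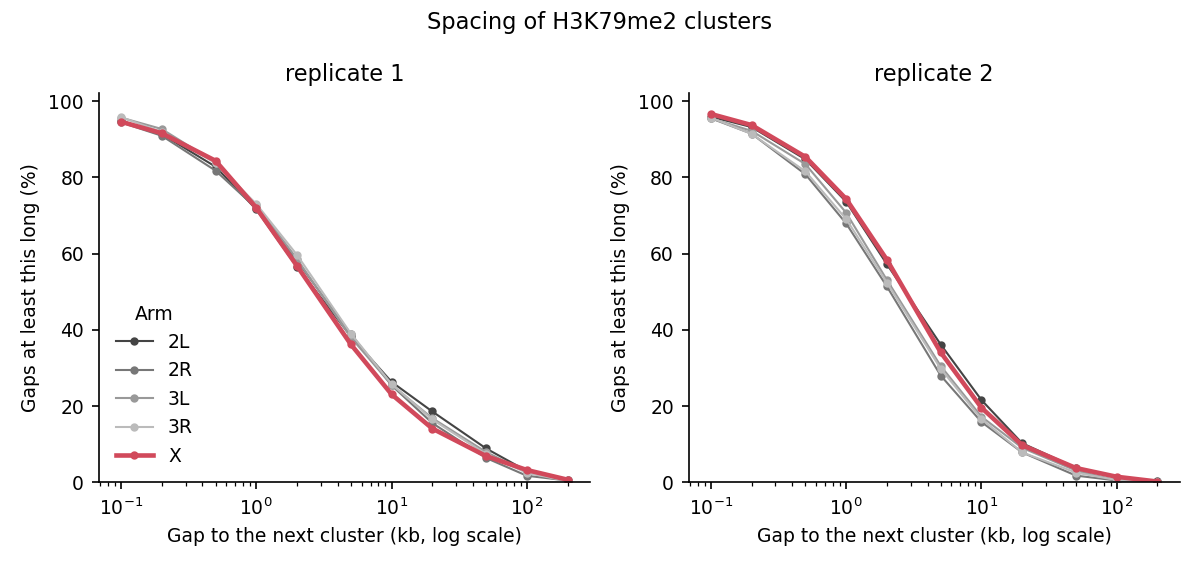
Share of gaps between neighbouring clusters (%) that are at least as long as the value on the log-scaled x axis (kb), for X (red) and 4 autosomal arms (grey), in each replicate list. The X curve stays near the autosomal curves, with 28.0% and 25.7% of X gaps under 1 kb.

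A large part of X held no cluster in either replicate. Stretches of at least 50 kb without a base in either replicate numbered 63, and they summed to 6.43 Mb or 28.7% of the arm. The autosomal arms had 17.9% (2R) to 26.6% (2L) of their length in such stretches. Stretches of at least 100 kb numbered 26 on X, against 10 to 21 on the autosomal arms, all but 1 of which are longer than X. Without the 1 Mb nearest the centromere on each arm, a comparison chosen after the values were seen, X had 23 of them against 8 to 19, and 26.8% of its length lay in stretches of at least 50 kb against 14.9% to 24.0%. In that comparison replicate 1 alone gave 42.6% on X and 42.8% on 2L, so the place of X above 2L did not hold there. Sequence on which reads cannot be placed uniquely was not left out, and its part in these stretches was not tested.

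The 5 longest stretches free of clusters in all 3 lists lay at both ends of the arm and within it. The longest, 345 kb from 21501442 to 21845980, ended 0.58 Mb from the centromeric end. Next came 283 kb from 7221365 to 7503964 and 201 kb from 13893410 to 14094230, both far inside the arm. Near the telomere, 184 kb from 170358 to 354649 was free, and 150 kb from 20530414 to 20680752 completed the set. The first 1 Mb of the arm, which contains the stretch of 184 kb, was nevertheless marked to 27.0% and 29.5% in replicates 1 and 2, close to the level of the whole arm.

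Coverage along X peaked close to the telomere and was lowest at the centromeric end. The densest 1-Mb window ran from 1000001 to 2000000 and held 73 and 97 clusters in replicates 1 and 2, which marked 44.3% and 57.6% of it. The next were 6000001 to 7000000, covered to 33.1% and 39.4%, and 19000001 to 20000000, covered to 32.5% and 39.0%. These 3 were chosen by the mean covered share of the 2 replicates. The median window was covered to 25.3% and 27.7% in replicates 1 and 2. The last of them lay only 2.92 Mb (centre of the window) from the centromeric end, though the window before it, from 18000001 to 19000000, was marked to 16.8% and 27.2%. Beyond it, the second to last 1 Mb was marked to 18.3% and 19.3%, and the last 1 Mb to 7.04% and 10.3%.

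The 3 sparsest full windows by the mean of the replicates lay at the centromeric end and in the distal part of the arm. The window from 21000001 to 22000000 was covered to 14.9% in replicate 1 and 16.5% in replicate 2. The next 2 lay in the distal part of the arm, from 7000001 to 8000000 (16.3% and 19.7%) and from 3000001 to 4000000 (20.4% and 16.2%). The first of these distal windows contains the free stretch of 283 kb. In the window from 3000001, replicate 1 marked more than replicate 2, as it also did from 11000001 to 12000000 (35.1% against 32.0%) and from 12000001 to 13000000 (30.0% against 25.5%). In the other 19 of 22 full windows replicate 2 marked more.

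**Figure D3:**
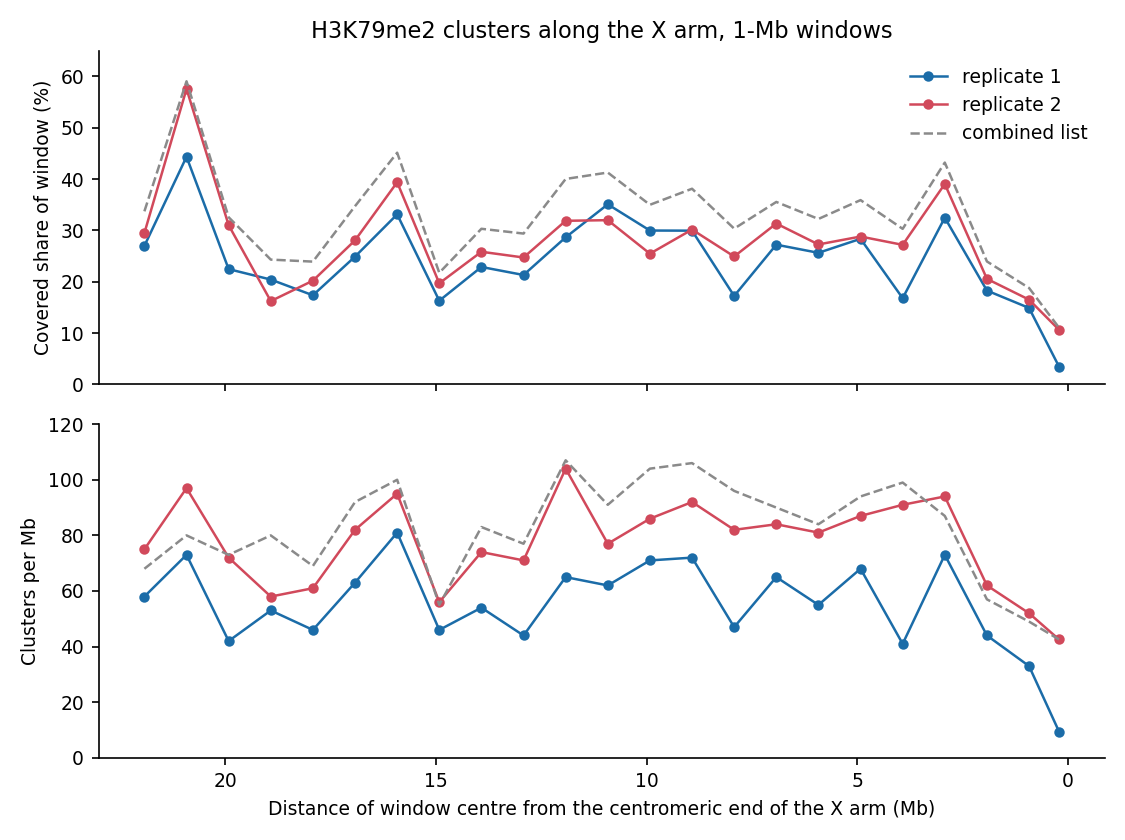
Covered share (%, top) and clusters per Mb (bottom) in 1-Mb windows along X, against the distance of the window's centre from the centromeric end (Mb; telomere on the left, the last window is shorter); blue and red points are the replicates and the dashed line is the combined list. The covered share of both replicates peaks in the second window from the telomere (44.3% and 57.6%) and is lowest in the short last window, while clusters per Mb peak elsewhere (81 and 104).

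Windows with high coverage held more clusters, and to a lesser degree wider ones. The profile of the 22 full windows of X was alike in both replicates, with a Pearson's r of 0.87 and a Spearman's rho of 0.84 between their covered shares. In a given replicate, the covered share of a window followed its number of clusters (rho = 0.89 in replicate 1 and 0.79 in replicate 2) more closely than their median width (0.27 and 0.53). These are descriptions over neighbouring windows of the same 2 libraries, and count and coverage are linked by construction. The densest window held many clusters, 73 in replicate 1 and 97 in replicate 2. Its clusters of 10 kb or wider numbered 14 and 9, more than in any other X window in either list.

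The widest H3K79me2 domains of X were crowded around that peak. Of the 10 widest combined clusters, which were 21.6 kb to 60.3 kb wide, 7 lay in the first 2 Mb of the arm. The widest ran from 1462616 to 1522920. It was 83.8% covered in replicate 1, in 4 clusters, and 98.4% covered in replicate 2, in 1 cluster. The next widest were a cluster of 42.9 kb from 1750873 to 1793756, covered to 90.04% and 94.6%, and one of 42.8 kb from 1855929 to 1898690, covered to 96.3% and 98.1%. Another, 27.0 kb from 1798097 to 1825067, lay between the latter 2. Each of these 4 domains was found in both replicates over most of its length.

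Outside the first 2 Mb, the 10 widest included 27.9 kb from 15607171 to 15635055, 26.6 kb from 6134915 to 6161490 and 22.2 kb from 21210186 to 21232340. Replicate 1 marked no less than 91.98% of any of them, and replicate 2 no less than 98.5%. The last lay 1.19 Mb from the centromeric end, inside the full 1-Mb window with the lowest mean coverage of the arm. Both replicates covered at least 50% of 9 of the 10 widest. The exception, 21.6 kb from 1380373 to 1402013, was covered to 17.1% in replicate 1, in 2 clusters, and to 98.1% in replicate 2.

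Clusters of X often followed each other in chains. When combined clusters under 1 kb apart were linked, 1032 of the 1859 (55.5%) belonged to 400 chains of at least 2 clusters, a share close to that on the autosomal arms (55.8%). In replicate 1 the share was 47.5% on X and 47.5% on the autosomal arms, and in replicate 2 it was 44.0% against 49.5%. The longest chain spanned 74.2 kb from 1750873 to 1825067 and joined 3 combined clusters, the second and sixth widest among them. Replicates 1 and 2 marked 87.9% and 95.4% of it. The next were 71.6 kb from 1451369 to 1522920, 61.0 kb from 6134915 to 6195931, 50.8 kb from 2517253 to 2568062 and 44.8 kb from 735536 to 780336. Of these 5 chains, the lowest coverage in replicate 1 was 70.6%, in the second, and in replicate 2 it was 76.6%, in the fifth.

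Scores on X were higher than on the autosomal arms, and by the largest rank difference among narrow clusters (ranked within a width class) in both replicates. The authors' score has no stated scale, so it is read as a rank within a list. The median X score stood at percentile 58.0 of all clusters on the 5 large arms in replicate 1 and at 59.5 in replicate 2 (58.8 ± 1.03, SD, n = 2). The medians of the single autosomal arms stood between 43.7 and 49.3 in replicate 1 and between 43.1 and 50.8 in replicate 2. X was therefore above every autosomal arm in both replicates, though the error of this difference cannot be estimated from 2 libraries.

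Few X clusters stood at the low end of the lists. In all, 3.65% of X clusters in replicate 1 and 4.00% in replicate 2 fell below the 10th percentile of the large-arm scores, and the autosomal arms had 10.7% to 12.9% and 9.80% to 13.9% of their clusters there. The score at the 5th percentile of an arm was 0.58 on X in replicate 1, against 0.48 to 0.49 on the autosomal arms, and 0.33 on X in replicate 2, against 0.16 to 0.20. At the high end the replicates parted. At the 90th percentile of an arm, replicate 1 gave 1.26 on X, against 1.23 to 1.26 on the autosomal arms, so X did not stand out. In replicate 2 the same value was 1.86 on X, against 1.65 to 1.71.

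**Figure D4:**
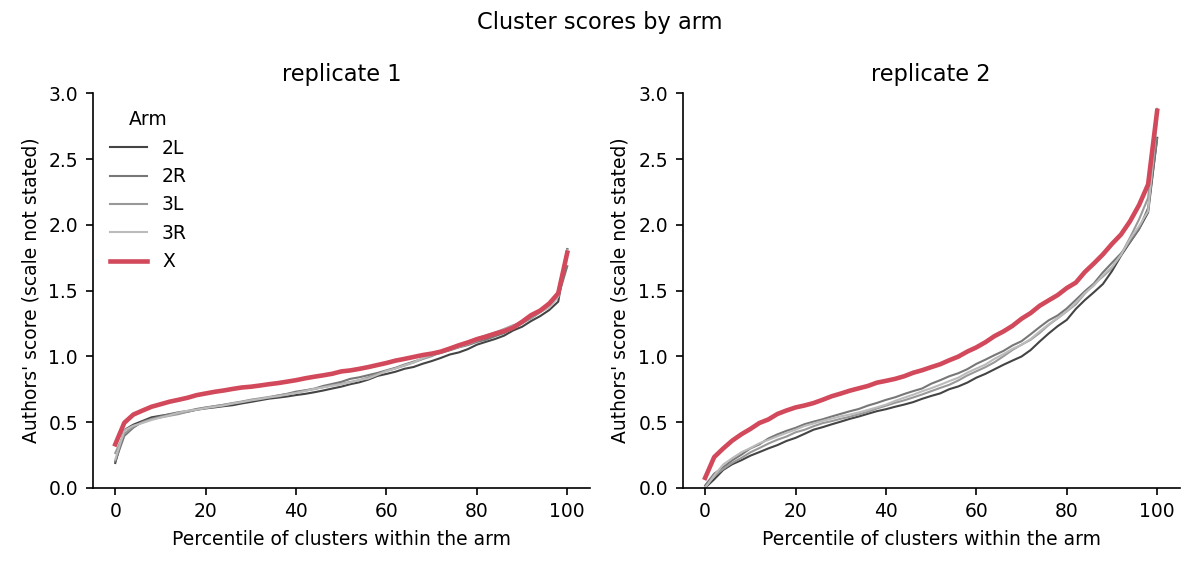
The authors' score (scale not stated) at each percentile of the clusters of an arm, for X (red) and 4 autosomal arms (grey), in each replicate. In replicate 1 the X curve is above the others at the 5th percentile (0.58) and meets them near the 90th, while in replicate 2 it is above them at both.

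Among narrow clusters the shift was of nearly the same size in both replicates. Of the clusters under 2 kb on the large arms, those on X (286 in replicate 1 and 595 in replicate 2) had a median score at percentile 81.5 in replicate 1 and 81.5 in replicate 2, and 81.1 in the combined list. The medians of the single autosomal arms stood between 40.5 and 47.4 in the replicates. Clusters of 2 to 5 kb on X stood at 64.0 and 62.8 of their width class. For 5 to 10 kb the values were 52.03 and 65.3, and for 10 kb or wider they were 53.2 and 71.8. In replicate 1 the shift was thus small from 5 kb upward, and in replicate 2 it was present in each width class.

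Each X cluster of the combined list was looked up in both replicate lists. Of the 1859, 847 (45.6%, exact binomial 95% interval 43.3 to 47.9) were at least 50% covered in both replicates, against 48.6% of all clusters in the list. A further 602 (32.4%) reached 50% in replicate 2 alone, against 34% in the list, and 232 (12.5%) in replicate 1 alone, against 10.5%. The remaining 178 (9.58%) reached it in neither, against 6.84%. With at least 1 bp required in each replicate, the share was 54.1% on X and 55.5% in the list, and with at least 80% it was 23.8% and 28%. At 50% and 80%, X thus held somewhat fewer doubly supported clusters than the list at large, while at 1 bp its interval (51.8 to 56.3) holds the share of the list. The arm 2L gave as low a share at 50% (45.6%) and 52.3% at 1 bp. The intervals cover counting error over clusters only, neighbouring clusters are not independent, and the combined list was made from the same libraries, so it is no independent evidence.

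By base, 52.1% of the X length marked in either replicate was marked in both, which was 73.2% of the length of replicate 1 and 64.4% of that of replicate 2. On the large autosomal arms the shared part ranged from 50.5% (2L) to 56.2% (3R), and X lay inside that range. Of the combined X length, 54.7% was marked by both replicates, 26.4% only by replicate 2, 13.5% only by replicate 1 and 5.45% by neither. The part in neither was above that of each autosomal arm (2.87% to 4.38%), and the part in both was below each (56.3% to 61.1%).

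Support in both replicates rose with the width and the score of the cluster, though both come from a list made from the same 2 libraries. On X, 4.67% of clusters under 2 kb, 58.4% of those of 2 to 5 kb, 75.8% of those of 5 to 10 kb and 90.7% of those of 10 kb or wider reached 50% coverage in both. The same classes on the autosomal arms reached 5.90%, 61.8%, 85.4% and 94.8%. Of the 621 X clusters under 2 kb, 210 were narrower than any replicate cluster, and none of these reached 50% in both. X was lower in each class, though the exact binomial intervals of X and the autosomal arms parted only for 5 to 10 kb (70.8 to 80.3 against 83.5 to 87.2).

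Within the same score quartile, X clusters were found in both replicates less often, but width was not held equal. In the third quartile, the clusters at least 50% covered in both had a median width of 3462 bp on X and 3999 bp on the autosomal arms. The part of width in this difference was not tested. In the second quartile of the large-arm scores, 12.7% of X clusters and 24.97% of autosomal clusters were at least 50% covered in both replicates. In the third quartile the shares were 47.3% and 72.6%, and in the highest 94.2% and 98.3%. With quartiles taken within X and within the autosomal arms separately, the second gave 16.6% and 21.4%, the third 60.6% and 69.9%, and the highest 96.3% and 98.2%. Ranking X by its own scores thus narrowed the gap to the autosomal arms in each quartile. The exact binomial intervals of X and the autosomal arms then parted only in the third (56.04 to 65.1 against 67.8 to 71.9). In the lowest quartile, the separate ranking gave 8.60% and 8.68%.

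**Figure D5:**
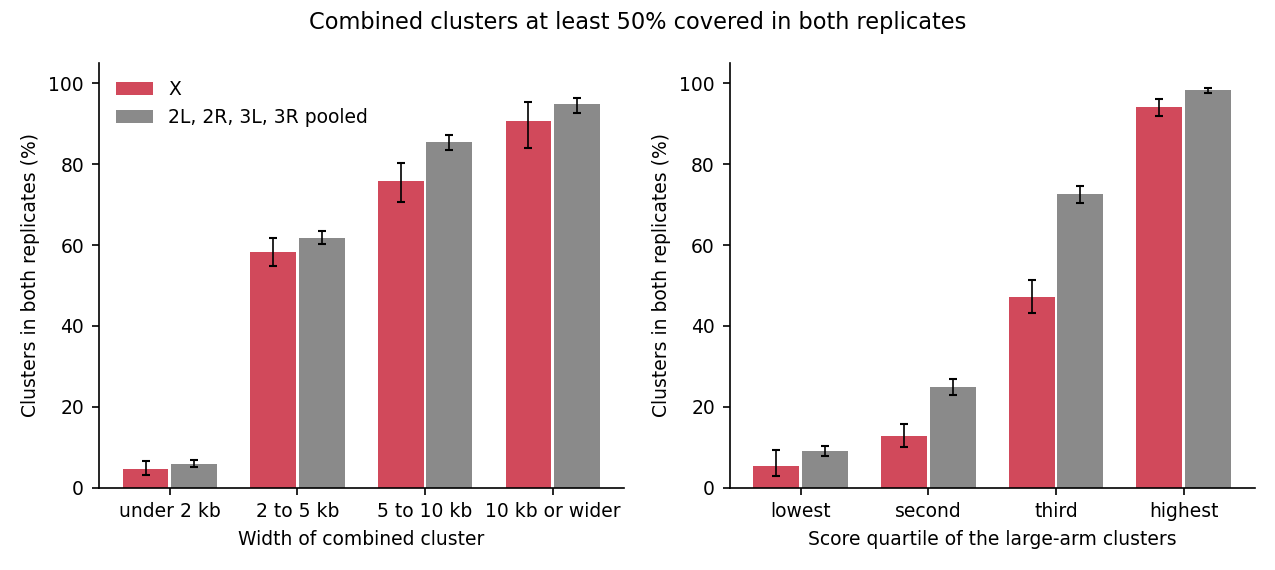
Share of combined clusters (%) that are at least 50% covered in both replicates, by width (left) and by score quartile of all large-arm clusters (right), for X (red) and 4 autosomal arms pooled (grey); bars carry exact binomial 95% intervals over clusters. On X the share runs from 4.67% under 2 kb to 90.7% at 10 kb or wider, and in the third score quartile it is 47.3% on X against 72.6%. The class under 2 kb includes 210 X clusters narrower than any replicate cluster.

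On X, 160 clusters of the combined list (8.61%) had no base in either replicate, against 5.94% of all clusters in the list. They were short, with a median of 1239.5 bp and a range from 1001 to 2979 bp. No replicate cluster was narrower than 1301 bp, while the combined list went down to 1001 bp, and 94 of the 160 were below 1301 bp. Their median distance to the nearest replicate cluster was 1310.5 bp. The minimum widths of the lists therefore differ, and a short combined cluster has no counterpart of its own size in the replicate lists. Without the 210 X clusters under 1301 bp, 51.4% of X clusters were at least 50% covered in both replicates, against 55.3% on the autosomal arms. Among those 1649 wider X clusters, 66 (4.00%) still had no base in either replicate, against 1.98% on the autosomal arms.

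The strongest X clusters were largely covered in each replicate list, with 1 exception. Their scores come from a list made from the same libraries, so this coverage is not independent replication. It was also common among high scores. In the highest quartile of the large-arm scores, 94.2% of X clusters reached 50% coverage in both. The highest combined score of the arm belonged to 10.96 kb from 17553879 to 17564836, of which replicates 1 and 2 marked 84.6% and 96.95%. The other 8 of the 10 highest, below the second, were 4.58 kb to 17.7 kb wide, and their lowest coverage was 92.8% in replicate 1 and 93.7% in replicate 2. Among them were 5.02 kb from 12490427 to 12495442, 15.6 kb from 11003094 to 11018647 and 8.52 kb from 18271465 to 18279982. The exception was the second highest, 1.09 kb from 10444801 to 10445890, which had no base in either replicate list. It is shorter than the narrowest replicate cluster, and its score of 2.18 is the highest of the 160 clusters found in neither. None of the 10 highest-scoring clusters lay in the first 2 Mb, where most of the widest lay. The first 1 Mb held 69 of the 1859 combined X clusters, and the second held 79. With so small a share of clusters there, this absence cannot show that strong and wide clusters lie apart.

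Looked at from the replicate lists, 164 of the 1260 X clusters of replicate 1 (13.0%) met no cluster of replicate 2, and 596 of the 1751 of replicate 2 (34.0%) met none of replicate 1. On the autosomal arms these shares were 10.8% and 34.0%. The unmatched X clusters were narrower, with medians of 1999.5 bp in replicate 1 and 1893 bp in replicate 2, against 3452 bp and 3284 bp for those that were met. Where 1 cluster of each replicate met only the other, which was so for 662 pairs on X, the left edges differed by a median of 420.5 bp and the right edges by 438 bp. On the autosomal arms the medians were 351.5 bp and 367.5 bp over 2448 pairs. The X pairs took in 52.5% of the X clusters of replicate 1 and 37.8% of those of replicate 2. Edges of these paired clusters thus lay well under 1 kb apart in the median. On X 54.4% of them lay within 500 bp of each other, against 60.1% on the autosomal arms.

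A few wide X clusters belonged to 1 replicate and shared no base with the other. In replicate 1 the widest were 17.4 kb from 581673 to 599098, 9.24 kb from 11519098 to 11528332 and 8.21 kb from 3085330 to 3093540. The next were 7.42 kb from 17617457 to 17624880 and 7.41 kb from 18824946 to 18832357. In replicate 2 the widest were 9.75 kb from 5666520 to 5676267, 8.55 kb from 1453659 to 1462208 and 8.22 kb from 14905151 to 14913370, followed by 7.87 kb from 15407707 to 15415579 and 7.25 kb from 3743469 to 3750722. The combined list held each of the replicate 2 clusters to at least 95.8% of its length, and those of replicate 1 to between 65.5% and 95.5%. The second of replicate 2 lies next to the widest combined cluster of X and is part of the second longest chain. Each of these 10 thus rests on 1 replicate.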

How the data were processed

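Head nuclei of adult flies were profiled by ChIP-seq in 2 ChIP libraries, each with an input library. Per the submitters' processing notes, the authors used the aligner Bowtie, version 0.12.7. They deposited 1 region list per ChIP replicate and 1 combined list, and the file headers name FlyBase release 5 as the build. For the caller, its minimum width, the use of input and the way of combining, no description is given in the sources used here. Each line of the deposited lists holds a region's first and last base, counted from 1, and the authors' score, which has no stated scale. The score was used only to rank, describe or filter clusters within a list. No counts or input values were analysed, so depth is unknown.

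From these lists were computed cluster widths, gaps, covered shares (arm lengths from the headers), 1-Mb windows and the coverage of each combined cluster in each replicate. The functions were tested on simulated data. Regions named are the 10 widest and the 10 highest-scoring X clusters, the 5 longest free stretches and chains, the 5 widest clusters of each replicate absent from the other, and the 3 densest and 3 sparsest full windows. The members and lists were chosen with earlier results of these data known. Nothing says that the replicates came from separate fly collections, so their spread may be technical. Alternatives were a score filter, a width filter, joining, a trimmed X, each replicate alone, the combined list, other overlap rules and single autosomal arms. All values were computed in Python 3.11.15 (pandas 2.3.3, numpy 2.4.6, scipy 1.17.1), and figures drawn with matplotlib 3.10.9.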

Additional observations from a re-analysis of the deposited data

How the results depend on the processing

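Of 91 values under alternatives, 53 moved by less than 1 SD between the replicates, the exact 95% interval of a share, or 1.5 times for a count. Values with 1 replicate left out were bound to be among the 53. With 2 replicates, the mean then always moves by less than 1 SD. The 38 that moved are given here, and the cause was not tested unless the filter itself sets it. Dropping the lower-scoring clusters, those under their list's median score, left, by construction, 1108 X clusters, 42.1 per Mb, and lowered the mean covered share to 21.3% and the part shared by base to 46.7%. It raised the median width to 4011 bp and the median gap to 5629 bp. The ratio of X to the autosomal arms became 1.03 for the covered share, 1.31 for clusters per Mb and 0.82 for median width, and the score percentile of X became 45.8. The first 2 ratios thus crossed equality, in a filter that favours X, whose clusters score higher. Joining clusters under 1 kb apart left 1227 X clusters (49.3 per Mb) with a median width of 3621 bp and a median gap of 4705.5 bp. Removing clusters under 2 kb left 1238 (47.5 per Mb), a covered share of 23.2%, a median width of 3709 bp and a median gap of 4159.5 bp, and 51.2% of the clusters were then at least 50% covered in both replicates. That share was 54.1% with 1 bp required, 23.8% with 80%, and 51.4% among clusters no narrower than the narrowest replicate cluster. Without the last 1 Mb of X, but with the autosomal arms left whole, the ratio of covered shares was 0.93 and the median gap 2678 bp. With the 1 Mb nearest the centromere removed from every arm, X was marked to 25.6% in replicate 1 and 29.0% in replicate 2. The single autosomal arms then ranged from 26.6% to 30.5% and from 26.9% to 36.2%, so the 0.93 reflects trimming X alone. The combined list gave a covered share of 33.2%, 82.9 clusters per Mb, a ratio of covered shares of 0.96, a ratio of median widths of 1.02, a median gap of 1898 bp and a score percentile of 56.3. Against single arms, the ratio of covered shares was 1.03 (2L), 0.83 (2R), 0.93 (3L) and 0.85 (3R), so X exceeded only 2L, and the ratio of median widths was 1.02 against 2L. Without the densest 1 Mb of X, again with the autosomal arms left whole, the ratio of covered shares was 0.86. This setting and the limit at the narrowest replicate cluster were chosen after seeing the data. Stretches free of clusters numbered 26 at a minimum of 100 kb. Leaving out a replicate gave the values of the other replicate, as in the text.

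The covered share ranged from 24.8% to 28.2% when 1 replicate was left out, clusters per Mb from 56.2 to 78.1, the score percentile from 58.0 to 59.5, the median width from 2507 to 3201.5 bp and the median gap from 2683.5 to 2710 bp. The ratios ranged from 0.89 to 0.91 for the covered share, from 0.90 to 1.08 for clusters per Mb, which crosses equality, and from 0.91 to 0.99 for median width. No paired analysis was possible because the input libraries entered no comparison, so no groups were set against each other. Since depth is unknown, a stretch without clusters shows only that none was called there.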

Other observations

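The combined list held 1 region on X called depleted, 1508 bp from 16972595 to 16974102. It had no base in the clusters of replicate 1, but 97.3% of it lay inside a cluster that replicate 2 lists as enriched. The replicate lists held no depleted region on X, while replicate 2 held 91 on the large autosomal arms. The X heterochromatin sequence of 204 kb held 2 clusters in replicate 1, 4 in replicate 2 and 4 in the combined list.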
